A study of Mus musculus with 60 samples.

Results

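TRAV11, TRAV11D and TRAV1, with the J segments TRAJ18 and TRAJ33, are the T cell receptor (TCR) alpha segments from which mice build the invariant receptors of natural killer T cells and of mucosal-associated invariant T (MAIT) cells. They were followed in the TCRA clonotype tables of donor CD4+ and CD8+ T cells. A clonotype here is 1 CDR3 as read in amino acids, which a table lists once with a single V and J segment, and it was taken when its V segment was TRAV11, TRAV11D or TRAV1. These clonotypes were split by J partner into TRAV11 with TRAJ18, TRAV11 with another J, TRAV1 with TRAJ33 and TRAV1 with another J. Of the 5 segments 4 were listed, among 153 V and J segments in the CD4 table and 152 in the CD8 table. TRAV11 was carried by 490 of 62533 CD4 clonotypes and 392 of 59365 CD8 clonotypes, and TRAV1 by 400 and 537. TRAV11D was assigned to 0 clonotypes in either table, so every TRAV11 value below is of clonotypes named TRAV11. TRAJ18 was carried by 1063 CD4 and 1025 CD8 clonotypes, and TRAJ33 by 1411 and 1654, with any V segment.

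All donors were C57BL/6 mice. STAT3ko donors carried a floxed Stat3 deleted by Cre under the CD4 promoter, which acts in both CD4+ and CD8+ T cells because it is on in their common precursor, and STAT3koPD-1ko donors were also PD-1-/-, while WT donors carried neither change. Spleen T cells were taken before hematopoietic cell transplantation (HCT), with 1 library for each genotype. Their labels call these libraries naive and do not say whether cells of a naive phenotype were sorted. The day 6 T cells came from the liver and gut of lethally irradiated WT BALB/c recipients that had also received T cell-depleted WT C57BL/6 marrow, with 2 libraries for each tissue and genotype and 3 recipients pooled in each. The libraries were made from cells sorted for the donor marker H-2Kb, for TCR beta and for CD4 or CD8, so invariant cells that carry neither CD4 nor CD8 lay outside the sort. The methods speak of 2 batches, each combined from 3 mice, and do not say whether replicates 1 and 2 are those batches. Differences within each replicate number are therefore given too, and a p-value covers only the spread between these libraries.

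Natural killer T cells of the invariant kind join TRAV11 (or its copy TRAV11D) to TRAJ18 and recognise glycolipids held by CD1d. MAIT cells join TRAV1 to TRAJ33 and recognise microbial vitamin B2 metabolites held by MR1. Both are selected in the thymus, act quickly on activation, and settle in liver and mucosal tissue. CD1d and MR1 hardly vary between mouse strains, in contrast to the MHC molecules that most T cells of a mismatched graft respond to. The tables hold no gene expression, so the values below are of rearrangements, and no cell was assigned to either lineage.

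The segments lie on the forward strand of chromosome 14 (mm10, GENCODE M21 annotation). TRAV1 is at chr14:52427928-52428876, TRAV11D at chr14:52824357-52824912, TRAV11 at chr14:53519303-53519859, TRAJ33 at chr14:54185358-54185414 and TRAJ18 at chr14:54200777-54200842. The annotated TRAV11 and TRAV11D transcripts were identical at all 342 bases compared, so a read cannot tell them apart by V sequence, and the tables name only TRAV11. Another copy, TRAV11N at chr14:53135122-53135678, is annotated as a pseudogene and differed from TRAV11 at 8 of 343 bases.

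The germline ends that meet in the CDR3 are shown because they decide how much of each rearranged sequence below is encoded in the genome. For the V segments the run starts at the cysteine codon of the CDR3, and for the J segments the whole segment is given with its CDR3 part in capitals.
TRAV11 end: tgtgtggtgggcg
TRAJ18: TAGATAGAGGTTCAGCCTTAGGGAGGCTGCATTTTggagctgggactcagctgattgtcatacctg
TRAV1 end: tgtgctgtgaggga
TRAJ33: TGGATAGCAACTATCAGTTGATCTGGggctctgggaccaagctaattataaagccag

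The CDR3s with the highest mean usage of each invariant pair follow, numbered by that rank within a table. Capitals mark bases that match neither germline end, that is, bases inserted at the joint. Each is the nucleotide sequence that the table gives for an amino acid clonotype, which other nucleotide sequences can also encode.
CD4 TRAV11-TRAJ18 1: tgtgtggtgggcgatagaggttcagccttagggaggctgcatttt
CD4 TRAV11-TRAJ18 2: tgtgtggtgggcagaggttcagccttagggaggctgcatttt
CD4 TRAV11-TRAJ18 3: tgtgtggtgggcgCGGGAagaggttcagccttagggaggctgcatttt
CD4 TRAV11-TRAJ18 4: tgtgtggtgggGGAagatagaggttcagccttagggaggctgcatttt
CD4 TRAV11-TRAJ18 5: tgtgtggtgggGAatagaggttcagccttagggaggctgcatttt
CD8 TRAV11-TRAJ18 1: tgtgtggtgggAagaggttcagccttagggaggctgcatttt
CD8 TRAV11-TRAJ18 2: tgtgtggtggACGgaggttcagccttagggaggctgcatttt
CD8 TRAV11-TRAJ18 3: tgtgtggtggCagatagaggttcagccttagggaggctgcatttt
CD8 TRAV11-TRAJ18 4: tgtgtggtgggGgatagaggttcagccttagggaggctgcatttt
CD8 TRAV11-TRAJ18 5: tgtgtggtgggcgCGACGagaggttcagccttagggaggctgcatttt
CD8 TRAV1-TRAJ33 1: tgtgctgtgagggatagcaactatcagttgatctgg
CD8 TRAV1-TRAJ33 2: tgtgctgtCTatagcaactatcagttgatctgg
CD8 TRAV1-TRAJ33 3: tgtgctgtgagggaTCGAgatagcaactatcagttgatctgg
CD8 TRAV1-TRAJ33 4: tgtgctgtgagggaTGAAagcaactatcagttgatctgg
CD8 TRAV1-TRAJ33 5: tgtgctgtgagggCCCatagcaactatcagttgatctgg
CD4 TRAV1-TRAJ33 1: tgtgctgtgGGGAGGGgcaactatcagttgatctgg
CD4 TRAV1-TRAJ33 2: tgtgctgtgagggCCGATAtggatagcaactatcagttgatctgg
CD4 TRAV1-TRAJ33 3: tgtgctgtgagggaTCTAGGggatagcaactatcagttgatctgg
CD4 TRAV1-TRAJ33 4: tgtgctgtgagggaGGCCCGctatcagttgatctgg
CD4 TRAV1-TRAJ33 5: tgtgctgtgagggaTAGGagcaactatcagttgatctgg

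Usage is given as the percent of a library's listed clonotype frequency, that is, of the reads of clonotypes that the deposited table lists. Read counts are not in the tables, so the depth is unknown, no counting interval is given, and a clonotype at 0 is described as listed at 0. The join took 18 libraries and kept what occurred in 2 or more of them, 15 of its columns were used here, and the listed share of reads ran from 81.6% to 99.1% in the CD4 table and from 79.5% to 99.1% in the CD8 table, lowest in the 3 gut replicate 2 libraries of each. Usage is a share of RNA, so fewer cells of a kind and less receptor RNA per cell cannot be told apart. The replicate 1 libraries, above all those of liver, overlapped most with the libraries labelled before HCT. Over the member clonotypes, the library of the same genotype labelled before HCT shared 47.0% ± 14.7 (SD, n = 3) of its usage with CD4 liver replicate 1, against 4.24% ± 1.71 (n = 6) for a library of another genotype, and 7.54% ± 3.97 (n = 3) with CD4 liver replicate 2. For CD4 gut replicate 1 it was 20.6% ± 3.34 (n = 3), against 7.41% ± 2.30 (n = 6) for another genotype, and for gut replicate 2 it was 6.10% ± 3.37 (n = 3). In CD8 the same-genotype value was 50.5% ± 6.69 for liver replicate 1, 5.32% ± 1.31 for liver replicate 2, 21.0% ± 2.36 for gut replicate 1 and 13.9% ± 7.34 for gut replicate 2 (n = 3 each), against 6.40% ± 3.27, 7.999% ± 4.12, 8.86% ± 3.24 and 9.56% ± 3.97 for another genotype (n = 6 each). For the TRAV11 classes, the invariant pairs and the shares, results for liver against the libraries labelled before HCT are therefore given with and without liver replicate 1, and those for gut with and without gut replicate 1.

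TRAV11 and TRAV1 were rarely used V segments, and the invariant pairs were a small part of each. TRAV11 took 0.505% of CD4 usage on average (range 0.247% to 1.04% over 15 libraries) and 0.413% of CD8 usage (0.167% to 0.686%). TRAV1 took 0.284% in CD4 (0.145% to 0.639%) and 0.581% in CD8 (0.335% to 0.890%). TRAJ18 took 1.80% and TRAJ33 1.89% of CD4 usage, and 1.90% and 2.69% of CD8 usage, with all V segments together. The tables of CD4 and CD8 were joined separately, so their values are set side by side without a test.

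TRAV11 with TRAJ18, the natural killer T cell rearrangement, averaged 0.0308% of CD4 usage and 0.0306% of CD8 usage. It made up 6.09% of CD4 TRAV11 usage and 7.42% of CD8 TRAV11 usage. This was above the product of the V and J usages 3.31 times in CD4, in 12 of 15 libraries, and 3.99 times in CD8, in 7 of 15 libraries. By clonotypes, 28 were listed in CD4 where the product gave 8.33, and 19 in CD8 where it gave 6.77. Ranked by the share of their usage that had TRAJ18, TRAV11 was 7 of 87 V segments in CD4 and 3 of 91 in CD8, where the median segment had 1.501% and 1.48%. Even so, most TRAJ18 was joined elsewhere: TRAV11 carried 1.71% of CD4 and 1.61% of CD8 TRAJ18 usage and was 19 of 89 and 17 of 85 among its V partners.

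TRAV1 with TRAJ33, the MAIT rearrangement, had a different usage in the 2 tables. It averaged 0.0266% of CD8 usage, 4.58% of CD8 TRAV1, and 1.69 times the product of the segment usages, with 10 of 15 libraries above it. In CD4 it averaged 0.00202%, 0.712% of TRAV1, and 0.372 times the product, with 2 of 15 libraries above it. By clonotypes the tables were closer, with 17 listed in CD8 where the product gave 14.96, and 11 in CD4 where it gave 9.03. TRAV1 was 15 of 91 V segments in CD8 by the TRAJ33 share of its usage, and 72 of 87 in CD4. It supplied 0.989% of CD8 TRAJ33 usage and 0.107% of CD4 TRAJ33 usage.

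In CD4, TRAV11 with TRAJ18 was highest in liver. The libraries labelled before HCT had 0.00557% in WT, 0.0300% in STAT3ko and 0.000539% in STAT3koPD-1ko. The liver libraries had 0.0396% and 0.0769% in WT, 0.0604% and 0.0853% in STAT3ko, and 0.00723% and 0.0207% in STAT3koPD-1ko (replicates 1 and 2). The gut libraries had 0.0488% and 0.0166% in WT, 0.0219% and 0.0272% in STAT3ko, and 0.0206% and 0 in STAT3koPD-1ko. The order of the tissue means was liver (0.0484% ± 0.0312, SD, n = 6), gut (0.0225% ± 0.0159, n = 6) and before HCT (0.0120% ± 0.0157, n = 3), and the ranges of neighbours in it overlapped. The WT and STAT3ko values lay above 0.0207%, the highest STAT3koPD-1ko value, in 7 of their 8 day 6 libraries.

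In CD8, TRAV11 with TRAJ18 was highest in WT. Before HCT it was 0.0375% in WT, 0.000589% in STAT3ko and 0.00443% in STAT3koPD-1ko. The liver libraries had 0.109% and 0.0217% in WT, 0.000840% and 0.00585% in STAT3ko, and 0.00228% and 0.0666% in STAT3koPD-1ko. The gut libraries had 0.131% and 0.0487% in WT, 0.00407% and 0.00545% in STAT3ko, and 0.0200% and 0.00168% in STAT3koPD-1ko. All 5 STAT3ko libraries were below all 5 WT libraries, and the STAT3koPD-1ko libraries spread over both ranges.

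TRAV1 with TRAJ33 in CD8 was 0.0620% in WT, 0.0209% in STAT3ko and 0.0440% in STAT3koPD-1ko before HCT. The liver libraries had 0.0334% and 0.0105% in WT, 0.00420% and 0 in STAT3ko, and 0.0597% and 0.0320% in STAT3koPD-1ko. The gut libraries had 0.0162% and 0.0271% in WT, 0.00750% and 0.0360% in STAT3ko, and 0.0192% and 0.0266% in STAT3koPD-1ko. The tissue means were 0.0423% ± 0.0206 before HCT (n = 3), 0.0233% ± 0.0227 for liver and 0.0221% ± 0.00994 for gut (n = 6 each, SD), with overlapping ranges. In CD4 the pair was above 0 in 9 of 15 libraries: all 3 before HCT, at 0.00204% to 0.00558%, 4 of 6 liver libraries, at most 0.00315%, and 2 of 6 gut libraries, at most 0.00419%.

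**Figure D1:**
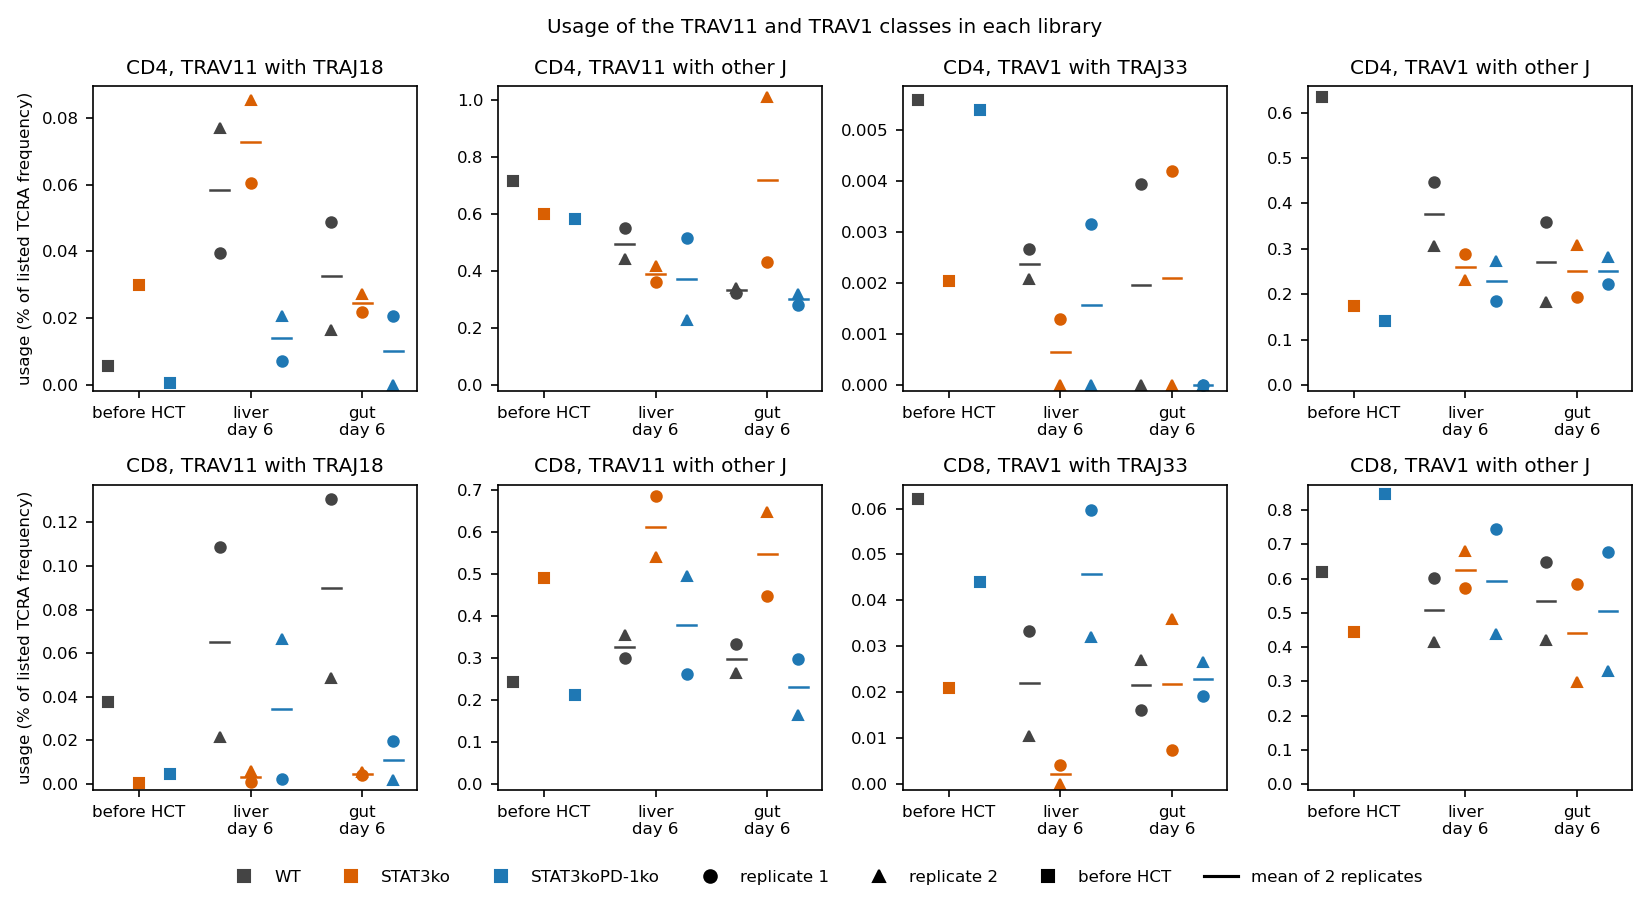
Usage of the 4 classes in each library, as percent of listed TCRA frequency on linear axes that differ between panels, for CD4 (top) and CD8 (bottom). Squares are single libraries before HCT, circles and triangles are replicates 1 and 2 on day 6, and bars are means of 2 replicates. In CD4, TRAV11 with TRAJ18 reached 0.0853% in STAT3ko liver, and in CD8 it reached 0.131% in WT gut while no STAT3ko library passed 0.00585%.

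The invariant pairs were made of few clonotypes, and single clonotypes set their level in a library. A CD4 library listed 0 to 10 TRAV11-TRAJ18 clonotypes (median 6) and a CD8 library 1 to 8 (median 3), against medians of 77 and 59 for TRAV11 with another J. TRAV1 with TRAJ33 had 0 to 5 clonotypes in a CD4 library (median 2) and 0 to 8 in a CD8 library (median 4). The leading clonotype held a median of 66.2% of the pair's usage in CD4 and 63.3% in CD8 for TRAV11 with TRAJ18, and 65.0% and 66.6% for TRAV1 with TRAJ33. For the other joints of these V segments the median was 11.9% to 19.1%.

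CD4 TRAV11-TRAJ18 1 had no inserted base, coded for 15 residues and is the CDR3 known from mouse invariant natural killer T cells. It was listed in 12 of 15 CD4 libraries, namely 2 before HCT, all 6 from liver and 4 from gut. Its usage was 0.0338% in WT, 0.0272% in STAT3ko and 0.00534% in STAT3koPD-1ko liver replicate 1, and 0.0101%, 0.0178% and 0.00442% in liver replicate 2. In gut it was at most 0.00695%, and before HCT at most 0.00557%. Each liver value of STAT3koPD-1ko was below both liver values of the other genotypes. In CD8 the same amino acid sequence was CD8 TRAV11-TRAJ18 4, given there with 1 inserted base, listed in 8 libraries (0 before HCT, 4 liver, 4 gut) and highest in WT gut replicate 1 at 0.0294%.

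CD4 TRAV11-TRAJ18 2 also had no inserted base, and the same amino acid sequence led the pair in CD8 as CD8 TRAV11-TRAJ18 1. In CD4 it was listed in 6 libraries, at 0.0531% in WT liver replicate 2 and at most 0.0112% elsewhere. In CD8 it was 0.00655% in WT before HCT, 0.0507% in WT liver replicate 1 and 0.0749% in WT gut replicate 1, and at most 0.00213% in the 3 STAT3ko libraries that listed it. The next sequences were often listed in 1 genotype. CD4 TRAV11-TRAJ18 4 was listed in 3 libraries, all STAT3ko, with 0.0337% in liver replicate 2, and CD8 TRAV11-TRAJ18 2 in 2 libraries, both STAT3koPD-1ko, with 0.0666% in liver replicate 2. CD8 TRAV11-TRAJ18 3 was listed in WT before HCT (0.0237%), WT liver replicate 1 (0.0493%) and WT gut replicate 1 (0.00324%), and CD8 TRAV11-TRAJ18 5 in 3 WT day 6 libraries with 0.0376% in gut replicate 2.

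CD4 TRAV11-TRAJ18 3, with 5 inserted bases, was 0.0247% in the STAT3ko library before HCT and 0.0149% in STAT3ko liver replicate 1, and was listed in 7 libraries. CD4 TRAV11-TRAJ18 5 was listed in 2 WT libraries and reached 0.0316% in gut replicate 1. Of the 28 CD4 and 19 CD8 clonotypes of the pair, 9 amino acid sequences were shared, 32.1% of the CD4 and 47.4% of the CD8 list. Clonotypes with no inserted base were 2 of 28 in CD4, with 41.5% of the pair's usage, and 1 of 19 in CD8, with 0.464%. By length, 47.6% of CD4 usage of the pair was in CDR3s of 15 residues and 52.6% of CD8 usage in CDR3s of 14 residues.

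CD8 TRAV1-TRAJ33 1 had no inserted base, coded for 12 residues and is the CDR3 known from MAIT cells. It was listed in 10 of 15 CD8 libraries, namely 0 of 3 before HCT, 4 of 6 from liver and all 6 from gut. The CD8 libraries before HCT listed fewer clonotypes of any kind, 8501 to 10482 against 10581 to 23961 in gut. The usage of CD8 TRAV1-TRAJ33 1 in gut was 0.000269%, 0.00344% and 0.0113% in WT, STAT3ko and STAT3koPD-1ko replicate 1 and 0.0204%, 0.00545% and 0.0190% in replicate 2. Its highest value was 0.0306% in STAT3koPD-1ko liver replicate 2, and it was not listed in either STAT3ko liver library. It was not listed in any CD4 library, and the 2 tables shared 0 of 11 CD4 and 17 CD8 amino acid sequences of this pair.

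CD8 TRAV1-TRAJ33 2, with 2 inserted bases and 11 residues, was also listed in 10 libraries, including all 6 from gut at 0.000624% to 0.00877%, and was highest in STAT3koPD-1ko before HCT (0.0419%) and liver replicate 1 (0.0368%). CD8 TRAV1-TRAJ33 3 and 4 each had 4 inserted bases and were listed only in WT libraries, with 0.0336% and 0.0280% before HCT and 0.0145% and 0.0129% in liver replicate 1. CD8 TRAV1-TRAJ33 5 was listed in 3 STAT3ko libraries and was highest before HCT at 0.0203%. CD8 TRAV1-TRAJ33 1 was thus at 0 in the 3 libraries before HCT, where these 4 clonotypes had their highest values. In CD4 the 5 leading sequences had 4 to 7 inserted bases, were in 2 or 3 libraries each, and did not pass 0.00418%. Clonotypes with no inserted base were 3 of 17 in CD8, with 32.5% of the pair's usage, and 0 of 11 in CD4.

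**Figure D2:**
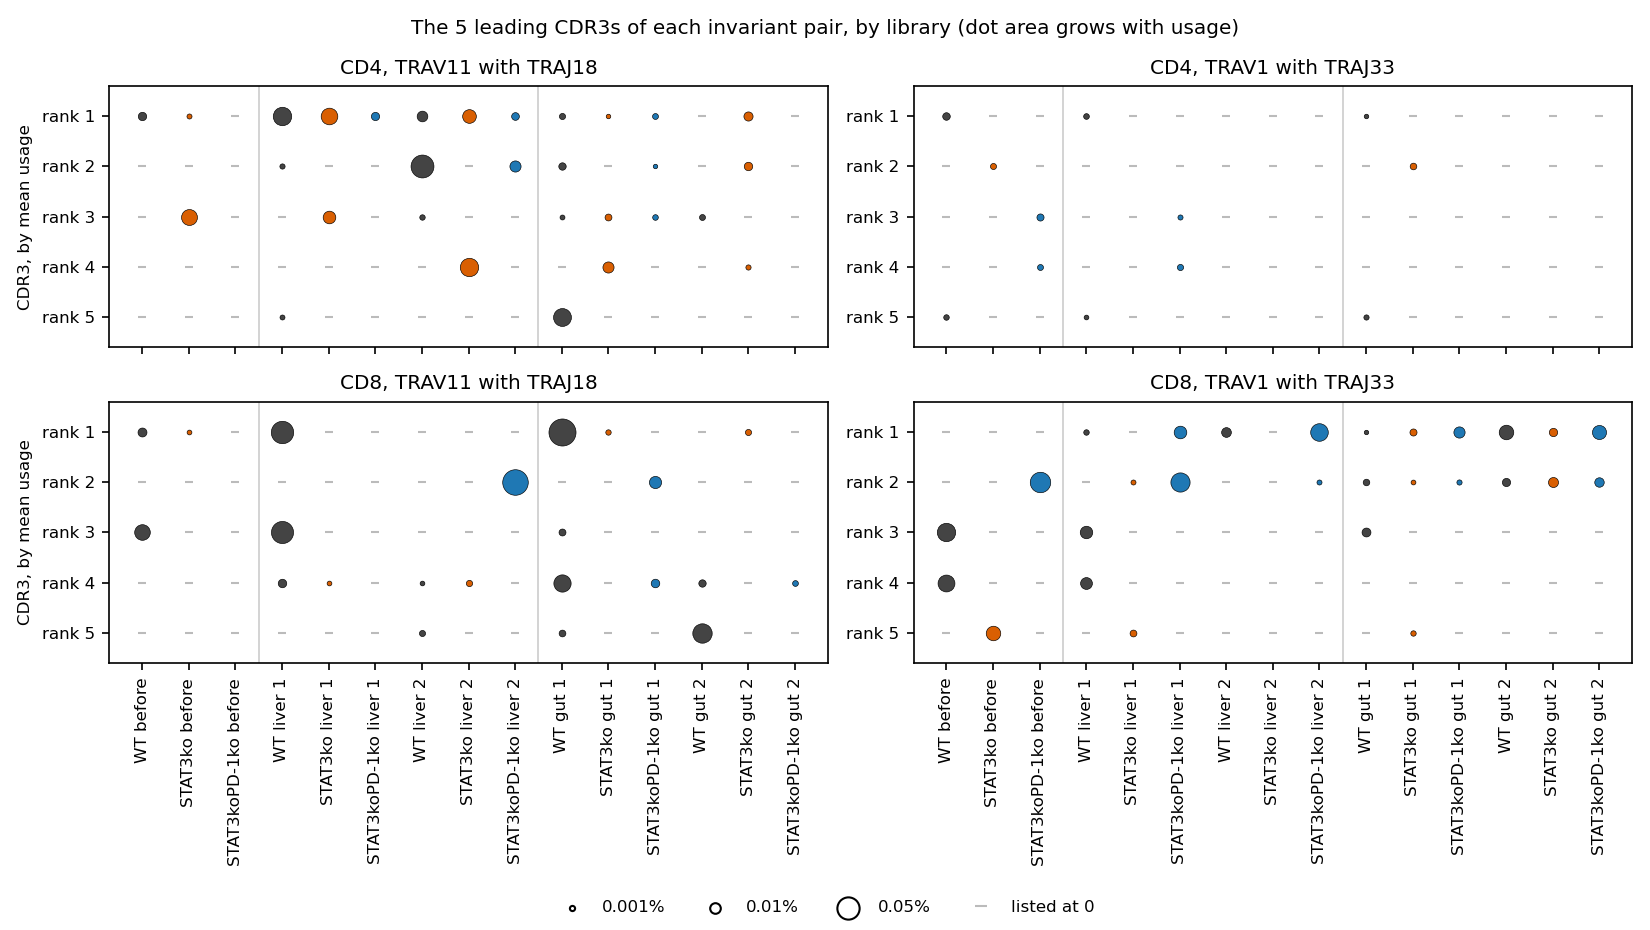
The 5 CDR3s with the highest mean usage of each invariant pair (rows, by rank) in each of the 15 libraries of a table (columns). Dot area grows with usage in percent of listed frequency, a dash marks a clonotype listed at 0, and grey, orange and blue are WT, STAT3ko and STAT3koPD-1ko. CD4 TRAV11-TRAJ18 1 spans all 6 liver libraries, and CD8 TRAV1-TRAJ33 1 and 2 span all 6 gut libraries.

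Tissues were compared to ask whether these rearrangements differ between gut, liver and the donor spleen. Usage was fitted as log2(percent + 0.01) with limma, alongside all other V segments, J segments or V-J pairs of the table, and called at an adjusted p under 0.05. Between gut and liver no member feature was called in either table, of 5 tested in CD4 and 6 in CD8, and 0 had an unadjusted p under 0.05. Over all features, calls were 8.05% of V segments, 4.65% of J segments and 0% of V-J pairs in CD4 (0 of 2075 pairs, 123 at an unadjusted p under 0.05), and 5.49%, 0% and 0% in CD8 (0 of 43 J segments, 5 unadjusted, and 0 of 2038 pairs, 78 unadjusted).

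CD4 TRAV11 with TRAJ18 differed by -0.79 between gut and liver on the log2 scale (SE 0.401, adjusted p = 0.774), and by -1.32 to -0.26 over the settings tried. CD8 TRAV11 with TRAJ18 differed by 0.01 (adjusted p = 0.997), with a sign that turned under other settings, down to -0.41 without gut replicate 1. CD8 TRAV1 with TRAJ33 differed by 0.20 (adjusted p = 0.984), and by -0.17 without gut replicate 2. CD8 TRAV11 with another J differed by -0.33 (adjusted p = 0.364), and by -0.17 without STAT3koPD-1ko liver replicate 2 and -0.18 without STAT3koPD-1ko gut replicate 2.

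The largest tissue difference was that of CD4 TRAV11 with TRAJ18 between liver and the libraries before HCT. It was 1.41 on the log2 scale (SE 0.493, unadjusted p = 0.00762, adjusted p = 0.947), and 1.76 without liver replicate 1 (adjusted p = 0.371). The settings tried gave 0.39 to 2.48. CD4 TRAV11 with another J went the opposite way, at 0.633% ± 0.0716 before HCT (n = 3), 0.419% ± 0.116 for liver and 0.451% ± 0.278 for gut (n = 6 each, SD). Its log2 difference was -0.63 for liver (adjusted p = 0.915), -0.84 without liver replicate 1 (adjusted p = 0.869), and -0.63 for gut (adjusted p = 0.151), or -0.38 without gut replicate 1 (adjusted p = 0.382). CD4 TRAV11 with TRAJ18 differed by 0.62 for gut (adjusted p = 0.598), and by 0.20 without gut replicate 1 (adjusted p = 0.910). The gut value of TRAV11 with another J included 1.01% in STAT3ko gut replicate 2, and without that library the gut difference was -0.88 (adjusted p = 0.0393, limma), which passed the threshold.

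In CD8, TRAV11 with TRAJ18 was 0.59 higher in liver (adjusted p = 0.813; 0.80 without liver replicate 1, adjusted p = 0.667) and 0.60 higher in gut (adjusted p = 0.648; 0.18 without gut replicate 1, adjusted p = 0.954) than before HCT, neither past the threshold. CD8 TRAV1 with TRAJ33 differed by -0.88 in liver (adjusted p = 0.746; -1.27 without liver replicate 1, adjusted p = 0.438) and -0.69 in gut (adjusted p = 0.541; -0.32 without gut replicate 1, adjusted p = 0.895). CD8 TRAV11 with another J differed by 0.48 in liver (adjusted p = 0.672; 0.62 without liver replicate 1, adjusted p = 0.540) and 0.16 in gut (adjusted p = 0.784; 0.055 without gut replicate 1, adjusted p = 0.906), with a sign that turned in both tissues under other settings. No member feature was called against before HCT in either table. In CD4 1 of 5 had an unadjusted p under 0.05 for liver and 0 for gut, and in CD8 1 of 6 for each. The background for liver was 0% in every fit (unadjusted 1 of 87 V segments, 3 of 43 J segments and 90 of 2075 pairs in CD4, and 5 of 91, 5 of 43 and 105 of 2038 in CD8). For gut it was 18.4% of V segments, 9.30% of J segments and 0.193% of pairs in CD4, and 3.30%, 0% and 0.0491% in CD8.

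The share of each V segment that had its invariant partner was compared too. It falls when another joint is high, as in CD4 STAT3ko gut replicate 2, where TRAJ50 was 0.562% of a TRAV11 usage of 1.04%. TRAJ18 made up 0.773%, 4.75% and 0.0925% of CD4 TRAV11 usage before HCT, in the order WT, STAT3ko and STAT3koPD-1ko. In liver it was 6.73%, 14.3% and 1.38% in replicate 1 and 14.8%, 16.9% and 8.39% in replicate 2. In gut it was 13.1%, 4.85% and 6.82% in replicate 1 and 4.62%, 2.62% and 0 in replicate 2. Liver was higher than before HCT within each genotype in both replicates. The mean difference was 8.55 percentage points (exact two-sided permutation p = 0.0476, adjusted over the 12 tests of shares p = 0.429). That permutation ran over all splits without regard to genotype, so its p does not test the pattern within genotypes. The smallest p it allows is 0.0119. The difference was 11.5 points without liver replicate 1 and 3.41 points with each clonotype counted once. Gut minus liver was -5.09 points (exact permutation p = 0.111, adjusted p = 0.444).

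In CD8 the TRAJ18 share of TRAV11 was 5.78% to 28.2% in the 5 WT libraries, 0.120% to 1.07% in STAT3ko and 0.865% to 11.9% in STAT3koPD-1ko. None of its 3 tissue comparisons passed (exact permutation p = 0.631 to 0.821, adjusted p = 0.841 to 0.896). The TRAJ33 share of TRAV1 was 0 to 3.71% in CD4 libraries and 0 to 10.8% in CD8 libraries. Liver minus before HCT was -1.35 points in CD4 (exact permutation p = 0.0714, adjusted p = 0.429), and in CD8 the adjusted p of the 3 comparisons ran from 0.619 to 0.841. Without liver replicate 1, liver minus before HCT was -1.69 points for CD4 TRAJ33, 1.05 for CD8 TRAJ18 (2.55 with it) and -3.10 for CD8 TRAJ33 (-2.40 with it). Gut minus before HCT was 3.46 points for CD4 TRAJ18, -1.38 for CD4 TRAJ33, 3.62 for CD8 TRAJ18 and -1.06 for CD8 TRAJ33, and 0.543, -1.91, 0.629 and 1.90 points without gut replicate 1, so the last of these changed sign.

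Genotypes were compared on day 6, with both tissues in the fit, to ask how loss of STAT3, and then of PD-1 in STAT3-deficient T cells, goes with the use of these segments. The largest difference was in CD8 TRAV11 with TRAJ18, at 0.0775% ± 0.0508 in WT and 0.00405% ± 0.00228 in STAT3ko (SD, n = 4 each, ranges 0.0217% to 0.131% and 0.000840% to 0.00585%). The log2 difference was -2.43 (SE 0.566, limma adjusted p = 0.224 over 2038 pairs), which did not pass. The exact permutation p was 0.0556, the smallest this design allows. The settings tried gave -3.82 to -0.47 with adjusted p = 0.0714 to 0.895. Before HCT the WT library, at 0.0375%, was also above the STAT3ko one, at 0.000589%. How far the donors set the day 6 difference was not tested. The STAT3koPD-1ko libraries, at 0.0226% ± 0.0305 (n = 4), differed from STAT3ko by 0.78 (adjusted p = 0.671), a value that turned to -0.77 when each clonotype was counted once.

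CD8 TRAV11 with another J ran the opposite way. WT had 0.299% and 0.354% in its liver libraries and 0.332% and 0.264% in its gut libraries. STAT3ko had 0.685% and 0.539%, then 0.447% and 0.647%, in the same order. STAT3koPD-1ko had 0.261% and 0.495%, then 0.298% and 0.165%. No STAT3ko value was within the WT range. Joints to a single J segment made up much of the usage in 2 of these libraries, with TRAJ26 at 0.433% of the 0.685% in STAT3ko liver replicate 1 and TRAJ34 at 0.318% of the 0.647% in STAT3ko gut replicate 2. The log2 difference of STAT3ko from WT was 0.86 (unadjusted p = 0.00322, adjusted p = 0.214), and that of STAT3koPD-1ko from STAT3ko was -0.99 (unadjusted p = 0.00106, adjusted p = 0.0965). Without STAT3koPD-1ko liver replicate 2 the second was -1.22 and passed (adjusted p = 0.0140, limma). Over the settings tried, the first difference ran from 0.18 to 1.01 and the second from -1.22 to -0.25. The STAT3ko library labelled before HCT, at 0.490%, was also above the WT and STAT3koPD-1ko ones, at 0.242% and 0.212%. Whether the donors or the response set the difference cannot be told apart with 1 library a genotype before HCT.

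In CD4, TRAV11 with TRAJ18 was 0.0455% ± 0.0250 in WT, 0.0487% ± 0.0297 in STAT3ko and 0.0121% ± 0.0103 in STAT3koPD-1ko (SD, n = 4 each). STAT3ko differed from WT by 0.06 (adjusted p = 0.992). STAT3koPD-1ko differed from STAT3ko by -1.41 (SE 0.491, unadjusted p = 0.00822, adjusted p = 0.403), with no overlap of their ranges (0 to 0.0207% and 0.0219% to 0.0853%). The settings tried gave -2.45 to -0.39. Before HCT the STAT3koPD-1ko library, at 0.000539%, was also below the STAT3ko one, at 0.0300%. How far the donors set this day 6 difference was not tested. CD4 TRAV11 with another J differed by 0.32 between STAT3ko and WT (adjusted p = 0.940) and by -0.65 between STAT3koPD-1ko and STAT3ko (adjusted p = 0.934). Leaving out 1 library moved the latter between -0.90, without STAT3koPD-1ko liver replicate 1, and -0.28, without STAT3ko gut replicate 2. CD8 TRAV1 with TRAJ33 was 0.0218% ± 0.0104 in WT, 0.0119% ± 0.0163 in STAT3ko and 0.0344% ± 0.0176 in STAT3koPD-1ko, with differences of -0.73 (adjusted p = 0.622) and 1.19 (unadjusted p = 0.0232, adjusted p = 0.456). The STAT3ko mean came mostly from gut replicate 2, at 0.0360%, with at most 0.00750% in the other STAT3ko libraries of day 6. Leaving out 1 library moved the difference from WT between -1.19 and -0.44.

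CD4 TRAJ18, with all V segments, was the member feature that passed adjustment. It was 1.98% and 1.82% in WT liver, 2.05% and 2.20% in STAT3ko liver and 1.29% and 1.59% in STAT3koPD-1ko liver, and 2.09% and 1.68%, 1.75% and 2.19%, and 1.62% and 1.54% in gut in the same order. STAT3koPD-1ko, at 1.51% ± 0.155, was below STAT3ko, at 2.05% ± 0.209, with no overlap (SD, n = 4 each), and fell by 0.44 on the log2 scale (SE 0.124, limma adjusted p = 0.0108). The background in this comparison was 14.0% of J segments (6 of 43). The STAT3koPD-1ko library before HCT, at 1.30%, was also below STAT3ko (1.70%) and WT (2.13%). With each clonotype counted once the difference was 0.013, and without liver replicate 1 it was -0.36 (adjusted p = 0.137). Leaving out STAT3koPD-1ko liver replicate 1, STAT3ko liver replicate 2 or STAT3ko gut replicate 2 also lost the call (adjusted p = 0.0653, 0.0562 and 0.0510).

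The invariant pair was a small part of that difference in TRAJ18. Without TRAV11, TRAJ18 usage was 1.73% to 2.16% in the 4 STAT3ko libraries and 1.28% to 1.60% in the STAT3koPD-1ko libraries of day 6. Its main V partners in CD4 were TRAV7D-2 (mean 0.220%), TRAV7-5 (0.169%, with 0.675% in STAT3ko gut replicate 2) and TRAV3D-3 (0.0815%). Joined to TRAJ18 they differed by -0.18, -1.12 and -0.41 between STAT3koPD-1ko and STAT3ko (adjusted p = 0.908, 0.485 and 0.807).

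Counting both genotype comparisons, no other member feature was called. STAT3ko against WT had 0 calls of 5 in CD4 (0 unadjusted) and 0 of 6 in CD8 (2 unadjusted), on a background of 0% in every fit (unadjusted 1 of 87 V segments, 4 of 43 J segments and 130 of 2075 pairs in CD4, and 10 of 91, 6 of 43 and 218 of 2038 in CD8). STAT3koPD-1ko against STAT3ko had 1 call of 5 in CD4 (2 unadjusted) and 0 of 6 in CD8 (2 unadjusted). The background was 0% of V segments and pairs in CD4 (unadjusted 1 of 87 and 204 of 2075), and 0% of V segments (9 of 91 unadjusted), 2.33% of J segments and 0.0981% of pairs in CD8. The differences between the genotype effects in gut and liver were tested for the member features too, with a lowest adjusted p of 0.910 over 10 tests in CD4 and 0.943 over 12 in CD8.

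The remaining features were not called in any of these comparisons. TRAV1 with another J differed by -0.29 to 0.14 in CD4 over the 5 comparisons (adjusted p = 0.767 to 0.998) and by -0.38 to 0.03 in CD8 (adjusted p = 0.486 to 1.00). TRAJ33 differed by -0.14 to 0.10 in CD4 (adjusted p = 0.413 to 0.983) and by -0.15 to 0.19 in CD8 (adjusted p = 0.365 to 0.981). CD8 TRAJ18 differed by -0.30 to 0.06 (adjusted p = 0.298 to 0.953).

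Within each replicate number the day 6 differences were taken with no test, a choice made after the data were seen. CD4 TRAJ18 differed between STAT3koPD-1ko and STAT3ko by -0.39 in replicate 1 and -0.48 in replicate 2, and CD4 TRAV11 with TRAJ18 by -1.05 and -1.76 (log2, 2 libraries a side). CD4 TRAV11 with another J differed in that comparison by -0.045 and -1.25. For CD8 TRAV11 with another J the values were -0.96 and -1.02 there, and 0.79 and 0.93 between STAT3ko and WT. CD8 TRAV11 with TRAJ18 differed between STAT3ko and WT by -3.39 and -1.46. Each of these had the same sign in both numbers, while between STAT3ko and WT the sign differed for CD4 TRAV11 with TRAJ18 (-0.19 and 0.31) and CD4 TRAV11 with another J (-0.096 and 0.73). Between gut and liver (3 libraries a side) the sign differed between the numbers for CD8 TRAV11 with TRAJ18 (0.64 and -0.62), CD8 TRAV1 with TRAJ33 (-0.56 and 0.95) and CD4 TRAV11 with another J (-0.45 and 0.45), while CD4 TRAV11 with TRAJ18 differed by -0.022 and -1.56.

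**Figure D3:**
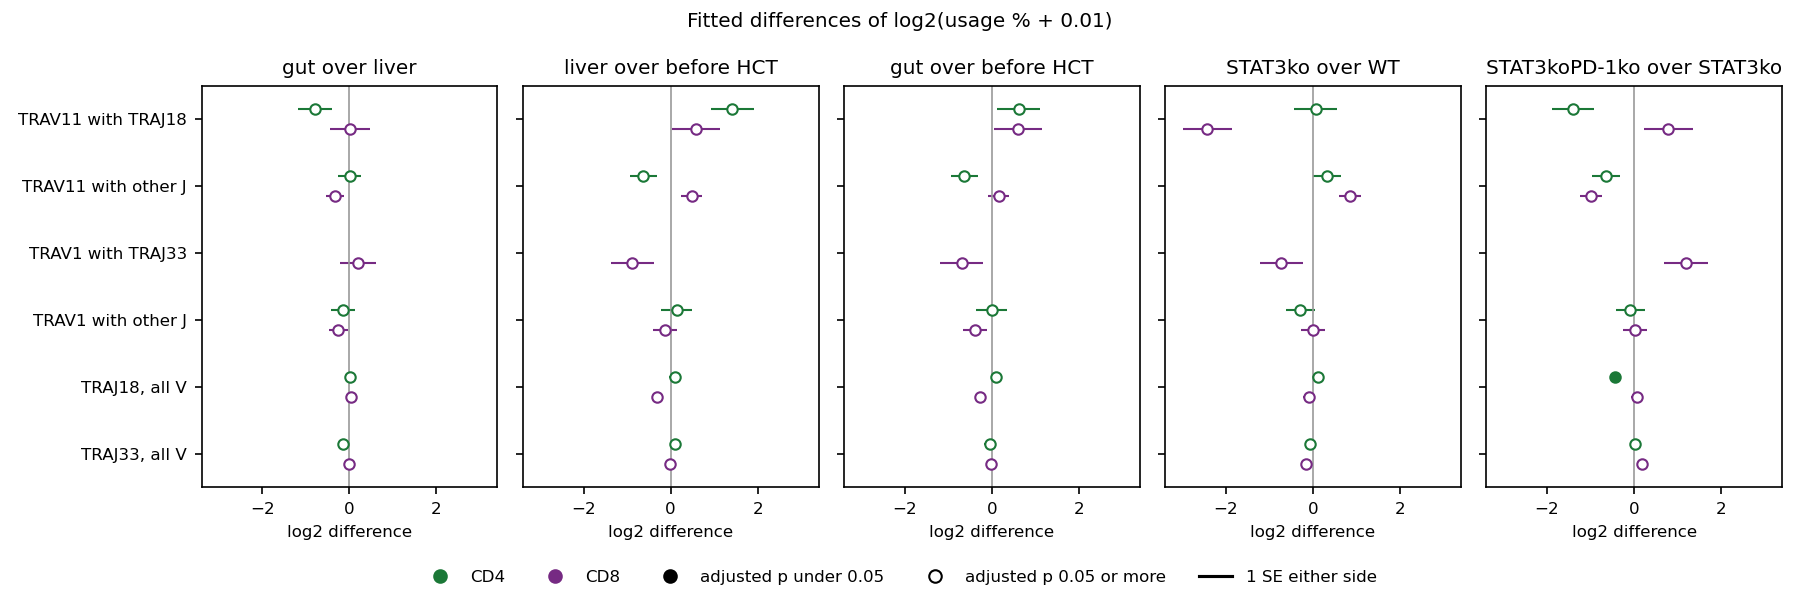
Fitted differences in log2(usage % + 0.01) for the member features in 5 comparisons, with lines of 1 SE either side, CD4 in green and CD8 in purple. The single filled point, CD4 TRAJ18 in STAT3koPD-1ko over STAT3ko (-0.44), is the one with an adjusted p under 0.05. The widest shifts of TRAV11 with TRAJ18, -2.43 in CD8 (STAT3ko over WT) and 1.41 in CD4 (liver over before HCT), did not pass.

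Outside the invariant joints, TRAV11 and TRAV1 used many J segments. TRAV11 was joined to 36 J segments in CD4 and 35 in CD8, and TRAJ18 was 5 and 4 by usage. In CD4 the leading partners other than TRAJ18 were TRAJ27 (mean 0.0836%, 16.6% of TRAV11), TRAJ50 (0.0506%), TRAJ39 (0.0433%), TRAJ32 (0.0409%) and TRAJ26 (0.0272%). TRAJ27 was listed in every library, and its highest value, 0.222%, was in STAT3koPD-1ko before HCT. The TRAJ50 mean came mostly from 1 library, STAT3ko gut replicate 2, at 0.562% against a median of 0.00841%. In CD8 the leading partners were TRAJ26 (0.0799%), TRAJ27 (0.0514%), TRAJ34 (0.0367%), TRAJ6 (0.0236%) and TRAJ32 (0.0233%), with STAT3ko libraries far above the median for 2 of them. TRAJ26 (median 0.0343%) was 0.433% in STAT3ko liver replicate 1 and 0.252% in STAT3ko before HCT, and TRAJ34 (median 0.0174%) was 0.318% in STAT3ko gut replicate 2.

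TRAV1 in CD4 was joined most to TRAJ12 (mean 0.0567%, highest 0.233% in WT before HCT), then TRAJ27 (0.0302%), TRAJ26 (0.0191%), TRAJ21 (0.0184%) and TRAJ24 (0.0172%, with a median of 0.00182% and 0.205% in WT before HCT). TRAJ33 was 24 of 34 partners there. In CD8 the leading partners were TRAJ30 (0.0738%), TRAJ26 (0.0555%), TRAJ34 (0.0355%), TRAJ22 (0.0328%) and TRAJ15 (0.0323%), and TRAJ33 was 8 of 36. None of these TRAV11 or TRAV1 joints passed adjustment in any of the 5 comparisons. TRAJ33 itself was joined most to TRAV14N-3 (0.191%), TRAV7-5 (0.148%) and TRAV14D-2 (0.124%) in CD4 and to TRAV16N (0.702%), TRAV12N-3 (0.285%) and TRAV7-5 (0.140%) in CD8. In CD8 the main partners of TRAJ18 were the same 3 V segments, with TRAV16N at 0.359%, TRAV12N-3 at 0.187% and TRAV7-5 at 0.138%.

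**Figure D4:**
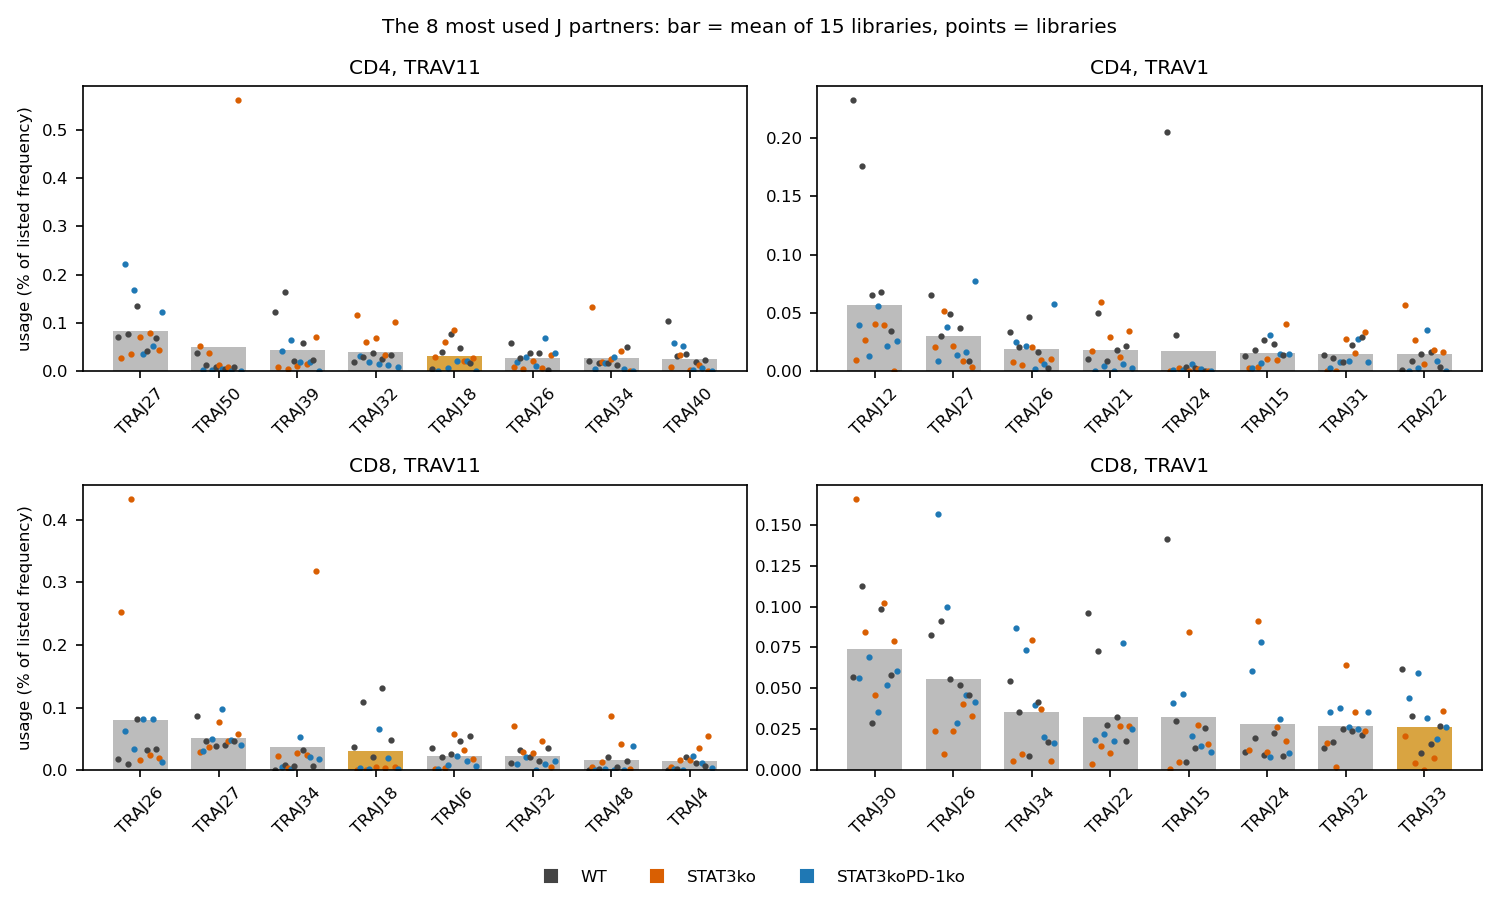
The 8 most used J partners of TRAV11 (left) and TRAV1 (right) in CD4 (top) and CD8 (bottom), as percent of listed frequency on axes that start at 0. Bars are means of 15 libraries, points are libraries coloured by genotype, and gold bars mark the invariant partners TRAJ18 and TRAJ33. TRAJ50 with TRAV11 in CD4 rests mostly on 1 point at 0.562%, and TRAJ33 is among the leading partners of TRAV1 in CD8 and not in CD4.

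TRAV11N, the pseudogene copy, was carried by 70 CD4 and 72 CD8 clonotypes at a mean of 0.0534% and 0.0580%, and it was examined after the values were seen. With TRAJ18 it averaged 0.0116% in CD4 and 0.00838% in CD8, 12.2 and 7.71 times the product of the usages. It ranked 1 of 87 and 1 of 91 V segments by its TRAJ18 share, at 21.6% and 14.4%. With TRAJ18 it had 5 CD4 and 10 CD8 clonotypes, and since a table gives each CDR3 a single V segment, none could also be counted under TRAV11. Reads may be split between such close copies by the authors' assignment, so the values of both are uncertain in that respect.

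Over the 15 libraries, the V segments whose log2 usage most resembled that of CD4 TRAV11 with TRAJ18 were TRAV6D-4 (Spearman rho 0.543), TRAV13-1 (0.457) and TRAV14D-2 (0.450). For CD4 TRAV1 with TRAJ33 they were TRAV12-2 (0.747), TRAV8-1 (0.682) and TRAV13D-2 (0.666), over values of which 6 were listed at 0. For CD8 TRAV11 with TRAJ18 they were TRAV3D-3 (0.775), TRAV7-4 (0.729) and TRAV12N-2 (0.554), and for CD8 TRAV1 with TRAJ33 TRAV7N-6 (0.436), TRAV12N-2 (0.386) and TRAV14N-1 (0.357). These are descriptions over libraries that share genotypes and tissues, picked as the highest of 86 CD4 or 90 CD8 segments.

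The beta segments that pair with the invariant alpha chains were read from the TCRB tables, where chains of a cell are not linked to its alpha chain and most cells using these segments are conventional. TRBV13-2, TRBV29 and TRBV1 are used by invariant natural killer T cells, and TRBV13 segments and TRBV19 by MAIT cells. The beta tables listed 81.6% to 97.2% of the reads of a CD4 library and 81.5% to 98.4% of a CD8 library, but only 47.8% to 51.5% and 53.2% to 58.0% in the 3 gut replicate 2 libraries, and usage is a share of the listed part. In CD4 all 6 were lower in gut than in liver, with a median log2 difference of -0.60 against -0.46 over all 23 segments. Of all segments 87.0% were called, 14 lower and 6 higher. TRBV29 fell from 2.99% ± 0.618 in liver to 1.63% ± 0.583 in gut (SD, n = 6 each, log2 difference -0.93), and TRBV13-2 from 5.33% ± 0.548 to 3.13% ± 0.899 (-0.82), with limma adjusted p = 5.56e-05 to 0.0101 over the 6. TRBV1 fell from 7.57% ± 0.933 to 4.80% ± 0.910 (-0.67), and TRBV19, TRBV13-3 and TRBV13-1 differed by -0.54, -0.49 and -0.31. All 6 were also lower in gut than before HCT (median -0.69 against -0.44, 82.6% of segments called, 13 lower and 6 higher). Without gut replicate 2 all 6 were again lower in both gut comparisons. Their median was -0.56 against -0.48 over all segments for liver (17 of 23 called), and -0.73 against -0.40 for before HCT (19 of 23 called).

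In CD8, 4 of the 6 were lower in gut than in liver (TRBV1, TRBV13-2, TRBV19 and TRBV29, median of the 6 -0.17 against -0.01). Of all 23 segments 47.8% were called, 7 lower and 4 higher. Against before HCT, TRBV13-2, TRBV19 and TRBV29 were lower and TRBV13-1 was higher by 0.45 (limma adjusted p = 0.0128). The median of the 6 was -0.26 against 0.07, with 47.8% of segments called, 7 lower and 4 higher. On undivided frequencies, which shift every CD8 segment by -0.48 in gut against before HCT, the TRBV13-1 call was lost, and 3 of the 6 were lower in both gut comparisons. Without gut replicate 2, TRBV19 and TRBV29 were still called lower than in liver and TRBV1 and TRBV13-2 were not. Against before HCT TRBV13-2 and TRBV29 were lower, TRBV13-1 was higher and TRBV19 was not called. In that setting 10 of all 23 segments were called in each comparison. None of the 6 was called for liver against before HCT (8.70% of segments in CD4, 0% in CD8, with 1 and 2 of the 6 at an unadjusted p under 0.05), for STAT3ko against WT (0% in both, 0 unadjusted) or for STAT3koPD-1ko against STAT3ko (0% in both, 1 and 2 unadjusted). Over all 23 segments the unadjusted counts in CD4 and CD8 were 3 and 2 for liver against before HCT, 0 and 1 for STAT3ko against WT, and 4 and 4 for STAT3koPD-1ko against STAT3ko.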

How the data were processed

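The authors sequenced TCR libraries (a SMARTer mouse TCR a/b kit, MiSeq paired reads), assembled clonotypes with MiXCR at default settings and joined libraries by CDR3 amino acid sequence with VDJtools. Per the labels the build was mm10. The deposited values are fractions of a library's reads in each clonotype (0 to 1), beside the number of libraries in which it occurred, which the alternatives used. Groups and replicate numbers came from the labels. Allele suffixes were dropped, fractions were summed by V segment, J segment or V-J pair and divided by the library's listed total, and TRAV11 and TRAV11D were pooled. Differences were fitted with limma 3.58.1 (R 4.3.3, empirical Bayes with a mean-variance trend) on log2(percent + 0.01), with genotype or tissue as covariate and all groups of the comparison sharing the spread. V and J segments with a mean of at least 0.05% and V-J pairs of at least 0.005% were kept, and p-values were adjusted by Benjamini-Hochberg over all features of a fit, called under 0.05. The invariant pairs lay below 0.05%, so they were tested among V-J pairs, and CD4 TRAV1 with TRAJ33 passed no filter and is given as values. Shares were compared with exact two-sided permutation tests (Python 3.11.15, scipy 1.17.1). These permuted within genotype for gut against liver, and over all splits for comparisons with before HCT. Fits were also run on simulated data with a capped spread and large changes, a setting that does not stand for the rare invariant pairs. The members and lists were chosen with earlier results of these data known. Named CDR3s and partners were the most used ones (5 CDR3s of each invariant pair, 5 J and 3 V partners), with the 3 V segments of highest Spearman rho. Germline sequences and positions came from GENCODE M21, and inserted bases were counted as those matching neither germline end. The alternatives changed the scaling, pseudocount, filter, clonotypes, libraries, trend and test, and counting TRAV11N with TRAV11, leaving out gut replicate 1 (or, for beta segments, gut replicate 2) and differences within a replicate number were added after seeing the data.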

Additional observations from a re-analysis of the deposited data

How the results depend on the processing

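Depth is not known for any library, so how far counting limits the rare pairs could not be computed. Undivided frequencies shifted every segment in gut against liver by -0.13 in CD4 and -0.16 in CD8 (log2), and by -0.50 and -0.44 in the beta tables. Of the alternatives, 317 counts of calls, 658 log2 differences and 137 shares kept their direction and side of the threshold, while 11 counts moved, 30 log2 differences and 19 shares reversed, 3 differences became stronger and 5 weaker. The filter of 0.5% left no invariant pair.

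The call of CD4 TRAJ18 between STAT3koPD-1ko and STAT3ko (1 call) was lost (0) with each clonotype counted once, where the log2 difference reversed to 0.013, without liver replicate 1 (-0.36), and in some of the fits that left out 1 library, which ranged from 0 to 1 call. The exact permutation test gave 0 calls at the same difference (-0.44), which says nothing of stability because its smallest p is 0.0556. CD4 gut against before HCT gave 1 call, TRAV11 with another J at -0.98 (adjusted p = 0.0315), with clonotypes of at least 3 libraries, and 0 to 1 when leaving out 1 library, and CD8 STAT3koPD-1ko against STAT3ko also gave 0 to 1. The CD8 beta list in gut against liver fell from 4 calls (11 of all 23 segments called) to 2 with no filter. Without gut replicate 2 it also fell to 2 (10 of all 23 called). The cause was not tested.

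The other reversed log2 differences were of uncalled features. CD4 STAT3ko against WT reversed for TRAV11 with another J to -0.038 with each clonotype once and -0.089 without gut replicate 2 (-0.050 to 0.50 when leaving out 1 library), and for TRAV11 with TRAJ18 to -0.086 without liver replicate 1 and -0.081 without gut replicate 2 (-0.14 to 0.29). CD8 TRAV11 with TRAJ18 in gut against liver reversed to -0.066 undivided, -0.0015 with a pseudocount of 0.1, -0.21 without liver replicate 1 and -0.41 without gut replicate 1 (-0.30 to 0.43), and in STAT3koPD-1ko against STAT3ko to -0.043 with clonotypes of at least 3 libraries, -0.77 with each once and -0.11 without the leading clonotype. CD8 TRAV11 with another J against before HCT reversed with clonotypes of at least 3 libraries, to -0.053 in liver and -0.22 in gut, and in gut also to -0.017 undivided and -0.16 with each clonotype once. CD8 TRAV1 with TRAJ33 reversed in gut against liver to -0.17 without gut replicate 2 (-0.11 to 0.40), and in gut against before HCT to 0.051 with each clonotype once and 0.15 without the leading clonotype. The cause was not tested.

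For shares, in percentage points, the CD4 TRAJ33 share of TRAV1 in gut against liver reversed to 0.307 without liver replicate 1 and 0.499 without gut replicate 2 (-0.349 to 0.189 when leaving out 1 library). The CD8 TRAJ18 share of TRAV11 reversed to -1.92 without gut replicate 1 for gut against liver, and when leaving out 1 library ranged from -2.81 to 4.87 for gut against liver, -1.25 to 6.65 for liver against before HCT and -0.262 to 7.73 for gut against before HCT. The CD8 TRAJ33 share reversed to -1.62 without gut replicate 2 for gut against liver, and to 0.0388 with each clonotype once and 1.90 without gut replicate 1 for gut against before HCT (-2.19 to 0.396). The cause was not tested.

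With the replicate number as a block, the calls of member features did not change: 1 for CD4 STAT3koPD-1ko against STAT3ko (TRAJ18 -0.44, adjusted p = 0.0107) and 0 in the other day 6 comparisons. Deviations of same-numbered libraries from their group means correlated at -0.135 to 0.211 in CD4 and -0.157 to 0.154 in CD8 between liver and gut of a genotype (over 0.1 in 1 of 3 pairs in each). Between genotypes of a tissue they correlated at -0.0174 to 0.501 in CD4 (over 0.1 in 4 of 6 pairs) and -0.0674 to 0.405 in CD8 (5 of 6), with all 3 gut pairs over 0.1 in each table. No label ties a number to a batch, and the methods do not say whether the numbers are the batches. Not every pair passed 0.1, so the libraries were not treated as paired. What lies behind the gut correlations was not tested.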
